A study of Mus musculus with 10 samples.

Results

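GABA-A receptors are chloride channels built from 5 subunits, and the genes described here encode 7 of the subunits: Gabra2, Gabra3, Gabra4 and Gabra5 for alpha subunits, Gabrb1 and Gabrb2 for beta subunits, and Gabrd for the delta subunit. They were taken by symbol from the 20196 rows of the table, and all 7 were found. A further 8 GABA-A subunit genes are used for comparison. The mRNA was bound to ribosomes carrying a GFP tag, expressed from a Gprin3 BAC transgene in hippocampal cells of male mice on the C57BL/6 background, while the sample records give the genotype as Wild Type. The 4 groups were unstressed controls, controls exposed to acute swim stress (AS, labelled FST), unstressed mice with early life stress (ELS), and ELS mice exposed to AS. For ELS, litters were kept on a wire grid with little nesting material between postnatal days 2 and 12. For AS, mice swam for 6 min at 25°C and recovered for 1 h. Mice were killed at 70 to 90 days of age, and each library pooled RNA from 5 to 6 of them. The sample records list 2, 2, 3 and 3 libraries in the order of the groups above, where the methods give 3 for each.

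The deposited table has 1 value per gene and group, the regularized logarithm (rlog) of the counts on the log2 scale. How the libraries of a group were joined into this value is not stated in the sources used here. No SD, n or test can therefore be given, no difference below can be set against the spread between libraries, and "lower" and "higher" only order the authors' group values. The depth of each library is unknown here. As the tissue was the whole hippocampus, a lower value can come from fewer tagged cells of a kind or from less RNA in each, and these cannot be told apart.

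Fast inhibition in the brain runs through GABA-A receptors, whose pore is most often made of alpha and beta subunits with a gamma or a delta subunit. The alpha subunit sets much of where a receptor sits and how it answers to drugs. Receptors with alpha2 are frequent at synapses on the cell body and axon initial segment of pyramidal cells, those with alpha5 lie mostly outside synapses in the hippocampus, and those with alpha4 and delta carry a steady current that neurosteroids raise, best known in dentate granule cells.

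Of the 7 subunits, Gabra2 and Gabrd had the widest ranges over the 4 groups, 0.52 and 0.40, each in its own pattern. Gabra2 was about 0.5 lower in the 3 stressed groups than in unstressed controls, and Gabrd was highest in ELS mice exposed to AS. Gabrb1 was lower in both ELS groups. Gabra4 was highest in unstressed controls and lowest after AS in controls, and Gabra3, Gabra5 and Gabrb2 had the narrowest ranges, 0.11 to 0.15. The plot of group values shows these patterns on axes of equal length.

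**Figure D1:**
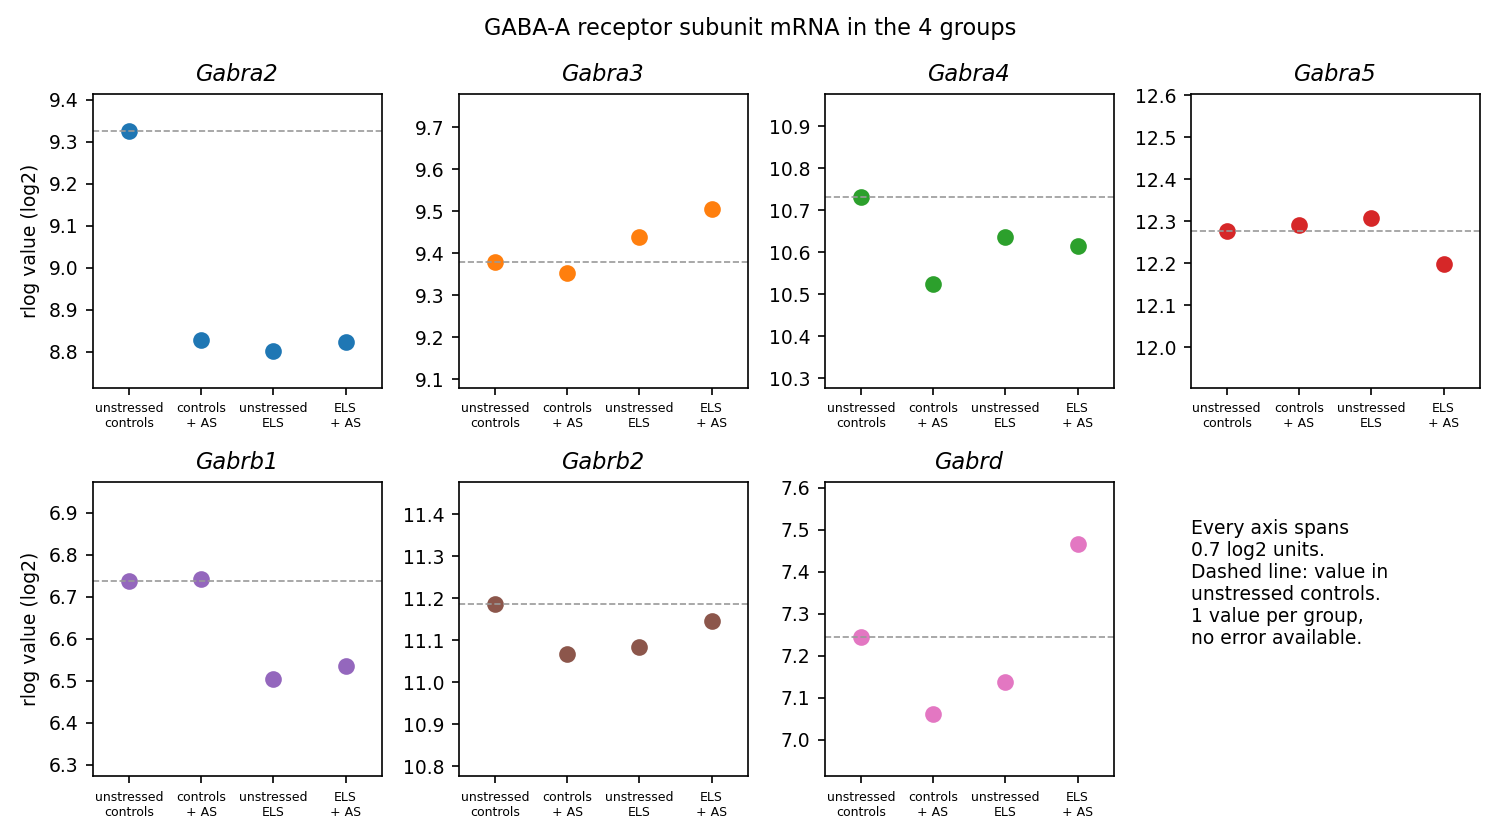
Each panel plots the rlog value (log2) of one subunit gene in the 4 groups, 1 point per group with no error available, on axes that all span 0.7 log2 units. Gabra2 has 1 high point, 9.33 in unstressed controls, and 3 between 8.80 and 8.83, while Gabrd has its highest point, 7.47, in ELS mice exposed to AS.

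The 7 genes lie in 5 places of the mm10 genome. Gabra2 (chr5:70957597-71095849), Gabra4 (chr5:71569749-71658308) and Gabrb1 (chr5:71658113-72149037) share a stretch of chromosome 5 with Gabrg1, which encodes a gamma subunit. Gabra4 and Gabrb1 are head to head on opposite strands, overlap by 196 bases and share 46 bases of exon. Gabra5 is on chromosome 7 (chr7:57407672-57510059) and Gabrb2 on chromosome 11 (chr11:42419757-42629028). Gabra3 is on chromosome X (chrX:72432681-72656848) and Gabrd on chromosome 4 (chr4:155384980-155398112). The strand setting of the authors' quantification is not stated in the sources used here, so reads from the exon bases that Gabra4 and Gabrb1 share may have gone to either gene.

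The 250 bases before the start site are shown for Gabra2, the subunit with the largest differences from unstressed controls, and for Gabra5, the subunit with the highest level. They are RefSeq's, on build GRCm38.p6, at chr5:71095850-71096099 and chr7:57510060-57510309, both on the minus strand, and 6 of the 7 genes had an entry. Capitals mark the matches to the letters searched, on either strand.
Gabra2: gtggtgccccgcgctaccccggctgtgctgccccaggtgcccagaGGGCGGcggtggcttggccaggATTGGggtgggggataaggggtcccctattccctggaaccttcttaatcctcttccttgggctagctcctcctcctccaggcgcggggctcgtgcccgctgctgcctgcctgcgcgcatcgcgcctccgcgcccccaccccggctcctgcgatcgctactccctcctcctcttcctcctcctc
Gabra5: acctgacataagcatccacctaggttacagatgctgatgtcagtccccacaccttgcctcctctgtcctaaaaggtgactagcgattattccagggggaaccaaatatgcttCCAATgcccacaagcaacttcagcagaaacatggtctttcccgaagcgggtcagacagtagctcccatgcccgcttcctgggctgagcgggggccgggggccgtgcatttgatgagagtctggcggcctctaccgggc
The TATA box was searched as TATAAA and the CCAAT box by its name. The cyclic AMP response element was searched as TGACGTCA, and its core, which the longer form contains, as TGACG. For the glucocorticoid receptor the hexamer AGAACA was used, for EGR1 the site GCGTGGGCG, for SP1 the box GGGCGG, and for E-box factors the letters CACGTG. The window of Gabra2 holds GGGCGG from 205 bases before the start site, letters found in 32.7% of all 32851 promoter windows of this length, and CCAAT on the other strand from 183 bases before it, found in 33.8%. The window of Gabra5 holds CCAAT from 138 bases before the start site. The 6 genes with an entry had 10 windows, and Gabrd had none. AGAACA, present in 16.1% of all windows, was found in 2 of these 10, both of Gabrb2. The EGR1 site, present in 0.536%, was found in none of the 10. The GC content was 70% for Gabra2 and 56.4% for Gabra5, with a median of 52.4% over all windows.

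Levels of different genes were compared per kb of the longest annotated transcript, as rlog minus log2 of that length. Gabra5, the alpha subunit typical of hippocampal pyramidal cells, had the highest level in unstressed controls, 10.86 per kb. Gabrb2 followed at 9.19, Gabra4 at 8.69 and Gabra3 at 7.51. Gabra2 stood at 6.78, Gabrd at 5.81 and Gabrb1 at 2.96. The order of the 7 was the same in all 4 groups. Gabra2 and Gabrd, next to each other in that order, differed in level per kb by 0.97 in unstressed controls, 0.65 after AS, 0.55 with ELS alone and 0.24 with both. Whether any neighbours differ beyond their spread cannot be said. The level of Gabrb1 rests on a longest transcript of 13737 nt, longer than in 99.3% of genes.

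Among the alpha subunits, Gabra2 had rlog values of 9.33 in unstressed controls, 8.83 after AS, 8.80 with ELS alone and 8.82 with both. The 3 stressed groups thus lay close together and all below unstressed controls. The difference from unstressed controls was −0.50 after AS, −0.52 with ELS and −0.50 with both, or −29.3%, −30.4% and −29.5% on the linear scale. All 14986 genes whose rlog averaged 3 or more served as the background, and among them these differences stood at percentiles 2.10, 1.71 and 1.52, counted from the lowest. AS in ELS mice left a difference of 0.02. The 3 differences share the unstressed controls, so a deviation of that 1 group value would move all of them. Gprin3, the gene whose BAC carries the ribosome tag, had differences of −0.55, −0.76 and −0.74 in the same groups, and its part in the values of Gabra2 was not tested.

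Gabra4, which joins delta in receptors outside synapses of granule cells, had values of 10.73 in unstressed controls, 10.52 after AS, 10.64 with ELS and 10.61 with both. Its lowest value was after AS in controls, with a difference of −0.21. In ELS mice AS left a difference of −0.02. Gabra3, common in the immature brain and in monoamine nuclei, had 9.38, 9.35, 9.44 and 9.51 in the same order. Both ELS groups were above both control groups, by at most 0.15. Gabra5 had 12.28, 12.29, 12.31 and 12.20, with its lowest value in ELS mice after AS. Its AS difference was 0.02 in controls and −0.11 in ELS mice, the latter at percentile 13.8.

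The beta subunits hold part of the GABA binding site. Gabrb1 had values of 6.74 in unstressed controls, 6.74 after AS, 6.50 with ELS and 6.54 with both. In the deposited values its groups split by early life history and not by AS. ELS mice were lower by 0.23 without AS and, against controls after AS, by 0.21 with it. These differences were −0.23, at percentile 13.5, and −0.21, at percentile 4.08, and they share no group. With the median of genes of like length subtracted they were −0.10 and −0.20. The AS difference in controls was then 0.15, so the split by early life history alone did not hold with that setting. Gabrb1 had the lowest level of the 7, where the rlog shrinks differences most. Gabrb2, a beta subunit of many synaptic receptors, had 11.19, 11.07, 11.08 and 11.15. It was lower by small amounts in both singly stressed groups, with −0.12 after AS and −0.10 with ELS, and by −0.04 with both.

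Gabrd encodes the delta subunit, which takes the place of gamma in receptors outside synapses. It had values of 7.24 in unstressed controls, 7.06 after AS, 7.14 with ELS alone and 7.47 with both. The order of the groups after AS was thus opposite in the 2 rearing conditions, lower than the unstressed group in controls and higher in ELS mice. The AS difference was −0.18 in controls against 0.33 in ELS mice, or −11.8% and 25.4%, and the latter stood at percentile 97.3 of all genes. Against controls after AS, ELS mice after AS were higher by 0.40, at percentile 97.4.

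Granule cells and some interneurons are known to express Gabrd, and markers of both were examined in the same comparisons. All 8 dentate granule cell markers were lower after AS in controls, against 51.7% of all genes. Their median was −0.42, or −0.34 with the length trend removed. After AS in ELS mice all 8 were higher, against 50.8%, with a median of 0.25, or 0.24 with the trend removed. Also higher there were 5 of 5 CA1, 8 of 8 astrocyte, 8 of 8 oligodendrocyte and 7 of 8 microglia markers. Of CA3 and endothelial markers, 2 of 6 and 1 of 4 were. For oligodendrocytes the medians were −0.27 after AS in controls and 0.45 after AS in ELS mice. The summed level of granule cell markers was 12.99 in unstressed controls, 12.70 after AS, 12.77 with ELS and 13.06 with both. All 10 interneuron markers were also higher after AS in ELS mice, against 50.8% of all genes. Their median was 0.26, or 0.29 with the length trend removed. After AS in controls 7 of the 10 were higher, against 48.3%, with a median of 0.21, or 0.074 with the length trend removed. The summed level of interneuron markers was 13.59 in unstressed controls, 13.61 after AS, 13.64 with ELS and 13.93 with both. None of the granule cell and interneuron markers was near 0 in any group, the lowest being Tdo2 at 7.17 and Vip at 6.73. The part of any of these cells in the values of Gabrd was not tested.

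For the AS effect in controls, 0 of the 7 subunits passed a difference of 0.5, against 3.64% of all genes, since Gabra2 lay just short of it. With ELS alone 1 of 7 passed, Gabra2, against 3.22%. For AS in ELS mice 0 of 7 passed, against 0.747%, and Gabrd was the only one past 0.25, a size that 7.07% of all genes passed. For ELS mice after AS against unstressed controls 1 of 7 passed, Gabra2 again, against 3.95%, and against controls after AS 0 of 7, against 1.69%. With 7 genes a single gene is already a share above these backgrounds. With the 4 groups centred on the medians of all genes, Gabra2 fell short of 0.5 in both of its comparisons, at −0.49 and −0.50, and Gabra2 and Gabrd had an AS difference in ELS mice minus that in controls of 0.46 and 0.45. Counting any size, 5 of 7 were lower after AS in controls and 5 of 7 with ELS alone, against 51.7% and 51.5% of all genes. Gabra3, one of the 5 after AS at −0.03, had the opposite sign with centring and with the length trend removed. Their median differences were −0.12 and −0.10, beside −0.01 and −0.01 over all genes. Gabra2, Gabra4 and Gabrb2 were lower than in unstressed controls in all 3 stressed groups, so 3 of 7, against 37.4% of all genes. After AS in ELS mice 5 of 7 were higher, against 50.8%, with a median of 0.03 beside 0.00.

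**Figure D2:**
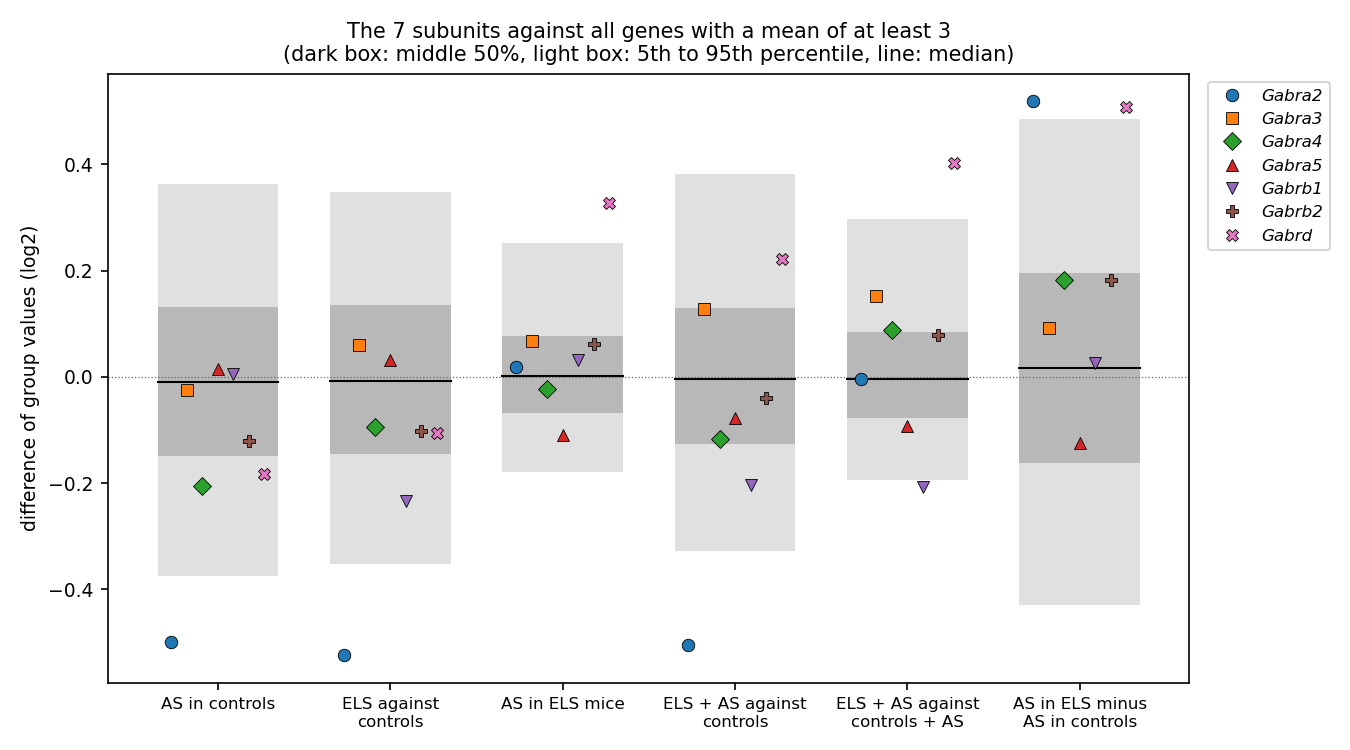
Differences of group values (log2) of the 7 subunits (symbols) in 6 comparisons, over boxes for the 14986 background genes, dark for the middle 50% and light from the 5th to the 95th percentile. Gabra2 lies below the light box in 3 comparisons, at −0.50, −0.52 and −0.50, Gabrd above it at 0.33 and 0.40, Gabrb1 just below it at −0.21, and both Gabra2 and Gabrd above it in the last column, at 0.52 and 0.51.

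Whether the AS difference was alike in both rearing conditions was asked by subtracting the AS difference in controls from that in ELS mice. The result was positive for 6 of the 7 subunits, against 52.6% of all genes, with a median of 0.18 beside 0.02. It was over 0.5 for Gabra2, with 0.52, and Gabrd, with 0.51, a size that 4.65% of all genes reached in that direction. For Gabra2 the AS difference was −0.50 in controls and 0.02 in ELS mice. Its 3 stressed groups lay close together, so a deviation of the unstressed control value alone would move this result. For Gabrd the AS difference was −0.18 in controls and 0.33 in ELS mice. The AS difference was smaller in size in ELS mice for 3 of the 7 subunits, Gabra2, Gabra4 and Gabrb2, against 69.7% of all genes.

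**Figure D3:**
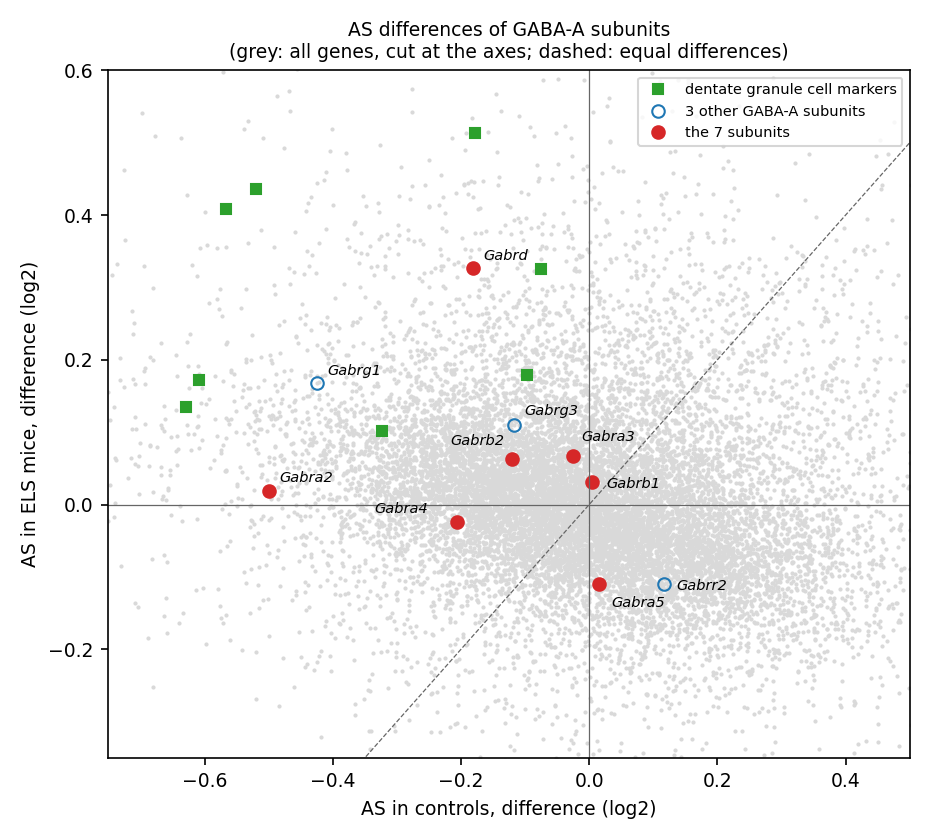
AS difference in ELS mice (vertical, log2) against that in controls (horizontal, log2) for the 7 subunits (red), 3 other GABA-A subunits (blue rings), 8 dentate granule cell markers (green) and all genes (grey, cut at the axes); on the dashed line both are equal. Gabrd, at −0.18 and 0.33, lies above and to the left of the origin, as all 8 granule cell markers do, and Gabra2, at −0.50 and 0.02, near the horizontal axis.

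Of the 8 other GABA-A subunits used here, 3 had a mean of at least 3. Gabrg1, a gamma subunit found in glia as well as neurons, had a wider range than any of the 7. Its values were 6.53 in unstressed controls, 6.10 after AS, 6.55 with ELS and 6.72 with both, so that controls after AS stood alone at the bottom. ELS mice after AS were 0.62 above controls after AS, at percentile 99.4. In the same comparison 7 of the 8 astrocyte markers were higher, with a median of 0.63, against 49% of all genes. Oligodendrocyte and microglia markers were higher for 8 of 8 genes each, with medians of 0.69 and 0.39, and endothelial markers for 0 of 4. After AS in controls, where Gabrg1 differed by −0.42, 5 of the 8 astrocyte markers were lower, with a median of −0.04. The part of these cells in the values of Gabrg1 was not tested. Gabrg3 had 4.32, 4.20, 4.26 and 4.37, and Gabrr2, a rho subunit best known from the retina, 3.14, 3.26, 3.21 and 3.10. Gabra6, Gabre, Gabrq, Gabrr1 and Gabrr3 had means under 3, with values between 0.11 and 1.89, and no difference is read from them.

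Neighbours on chromosome 5 differed in pattern. On chromosome 5 the AS difference in controls was −0.42 for Gabrg1, −0.50 for Gabra2, −0.21 for Gabra4 and 0.00 for Gabrb1, in the order of their positions. The ELS difference in the same order was 0.03, −0.52, −0.09 and −0.23.

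The differences of all genes followed transcript length. After AS in controls the tenth of genes with the shortest transcripts had a median difference of 0.17 and the tenth with the longest −0.12, and with ELS alone 0.20 and −0.14. The longest transcript of Gabra2 has 5852 nt, above 84.7% of genes. With the median of genes of like length subtracted, Gabra2 differed by −0.41 after AS, −0.41 with ELS and −0.42 with both, at percentiles 2.85, 2.45 and 1.95. Gabrd, with 2707 nt, kept its AS difference of 0.33 in ELS mice. Gabrb1 changed most, as its AS difference in controls went from 0.00 to 0.15 and its ELS difference from −0.23 to −0.10. The part of transcript length in these values was not tested further.

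**Figure D4:**
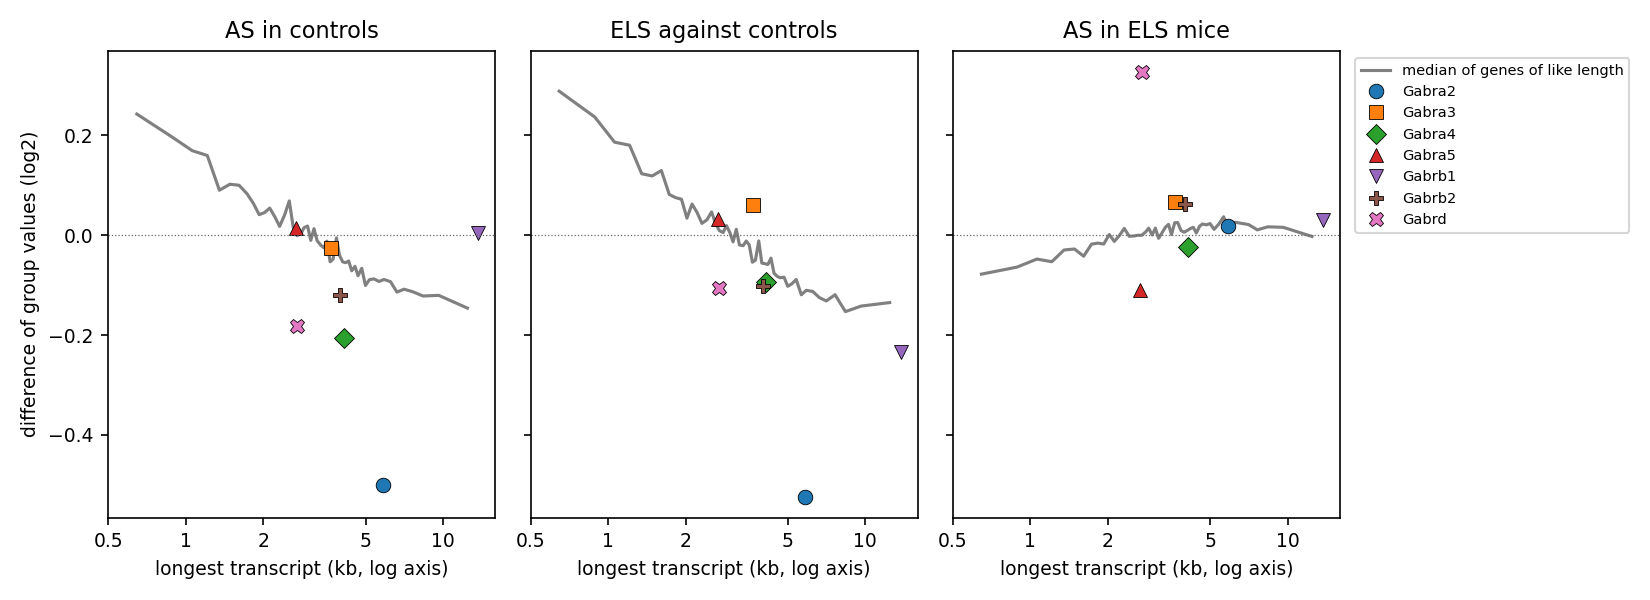
Difference of group values (log2) against the length of the longest transcript (kb, log axis) for the 7 subunits (symbols), with a line through the medians of genes of like length, in 3 comparisons. Gabra2 lies far below the line for AS in controls and for ELS, −0.41 from it in each, and Gabrd lies above it for AS in ELS mice, by 0.33.

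Genes that serve GABA-A receptors were described as lists beside the subunits. Of 21 genes for anchoring and traffic of the receptors, 17 were lower after AS in controls and 17 with ELS alone, against 51.7% and 51.5% of all genes. The medians were −0.07 and −0.11, or −0.035 and −0.064 with the length trend removed. In the list 19 lay within 0.1 between stressed and unstressed ELS mice, against 64.4% of all genes. Slitrk3, an adhesion protein that builds inhibitory synapses, was the only one past 0.5 from unstressed controls. Its values were 9.20, 8.55, 8.53 and 8.61 in the order of the groups above. Like Gabra2 it was lower in every stressed group, with larger differences of −0.64, −0.66 and −0.59. These share the unstressed controls, as those of Gabra2 do. Plcl1, which binds GABA-A receptors and aids their traffic, differed by −0.41 after AS and −0.23 with ELS, and Arfgef2, an exchange factor that helps receptors reach the surface, by −0.30 and −0.29.

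The chloride gradient that GABA-A receptors draw on is set by cotransporters. Of 7 genes for these and their kinases, 6 were lower after AS in controls and 6 with ELS alone, against 51.7% and 51.5% of all genes. The medians were −0.08 and −0.10, or −0.020 and −0.045 with the length trend removed. Slc12a5, which encodes the chloride extruder KCC2, had values of 12.02, 11.77, 11.72 and 11.81. Slc12a2, which encodes the importer NKCC1, had 8.66, 8.35, 8.48 and 8.67. Both were lower in the singly stressed groups, and only Slc12a5 was also lower with both, by −0.21 against 0.01 for Slc12a2. Oxsr1, a kinase that acts on both cotransporters, differed by −0.10 and −0.19.

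Neurosteroids raise the current through GABA-A receptors, above all those with delta. Of 5 genes of their synthesis with a mean of at least 3, 4 had higher values after AS in controls and 3 with ELS alone, against 48.3% and 48.5% of all genes. The medians were 0.13 and 0.04, or 0.19 and 0.093 with the length trend removed. Srd5a1, the 5α-reductase of this route, had values of 8.0 in unstressed controls, 8.22 after AS, 8.41 with ELS and 8.34 with both. Cyp11a1, which cleaves the side chain of cholesterol, had 5.57, 5.76, 5.93 and 6.03. Both were lowest in unstressed controls, with ELS differences of 0.41 and 0.36. Akr1c14, the next enzyme, had a mean under 3.

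**Figure D5:**
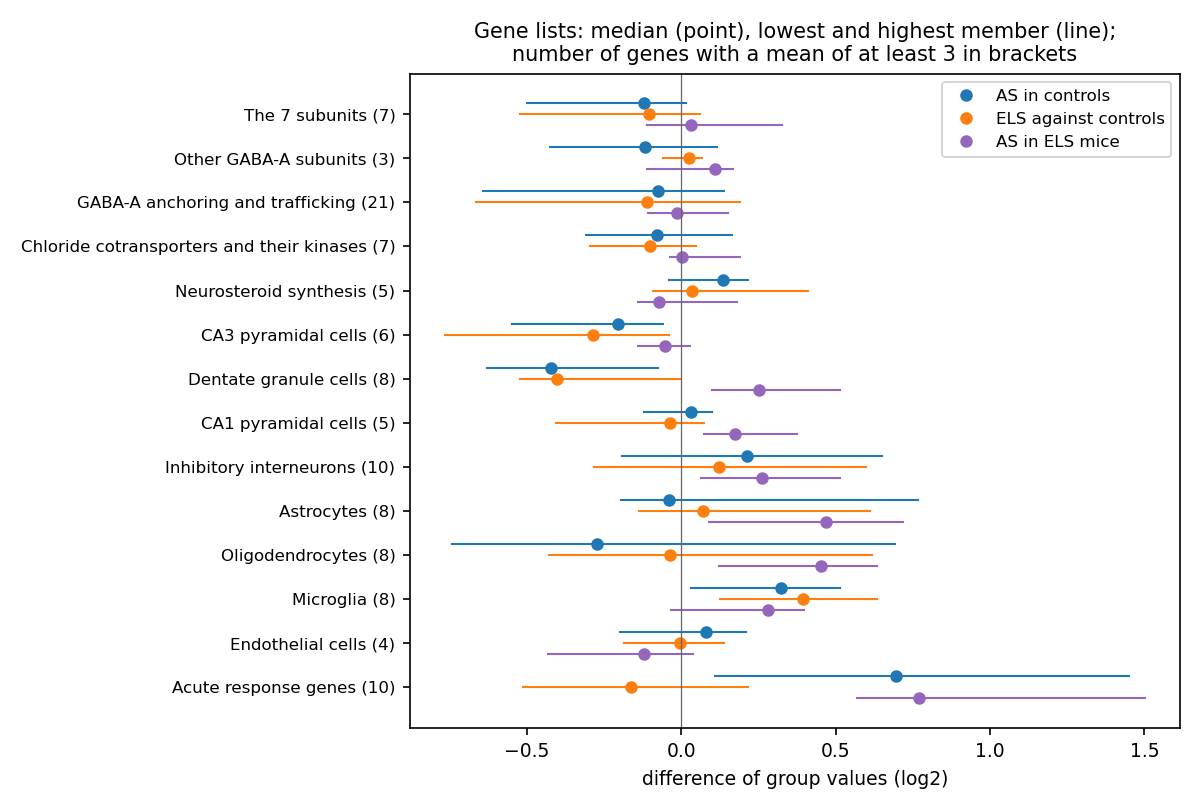
Median difference (point) and the lowest and highest member (line) of each gene list, in log2 units, for AS in controls (blue), ELS against controls (orange) and AS in ELS mice (purple), with the number of genes in brackets. The 7 subunits have medians of −0.12, −0.10 and 0.03, and the dentate granule cell markers of −0.42, −0.40 and 0.25.

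All 10 acute response genes, Fos and Egr1 among them, were higher after AS in each rearing condition, against 48.3% and 50.8% of all genes. The medians were 0.69 in controls and 0.77 in ELS mice. The authors had reported all of these genes as induced by AS in ELS mice in the same experiment. Their direction in ELS mice was thus known beforehand, and these genes are no independent check of the group labels. The 6 CA3 pyramidal cell markers, Gprin3 among them, were present. Each was lower than in unstressed controls in all 3 stressed groups, against 37.4% of all genes. The medians were −0.20, −0.29 and −0.31, which share the unstressed controls, and the summed level ran from 13.31 to 13.59. Markers of dentate granule cells, CA1 cells, interneurons, astrocytes, oligodendrocytes and microglia were present as well. In ELS mice after AS, 50.8% of all genes were higher than in unstressed ELS mice. Astrocyte markers were higher for 8 of 8 genes, oligodendrocyte markers for 8 of 8 and microglia markers for 7 of 8. The subunit values cannot therefore be assigned to CA3 cells alone, and the part of the other cells in them was not tested.

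The genes whose differences from unstressed controls lay nearest to those of each subunit were found by Euclidean distance over 3 differences, from 4 group values. For Gabra2 they were Dock4, Abca3 and Ksr1, at distances of 0.018 to 0.036, and 37 genes lay within 0.1. For Gabrd they were Celsr1, Stk17b and Plxdc2, at 0.028 to 0.034, with 46 genes within 0.1. For Gabrb1 they were Cpne7, Gal and Shh, at 0.029 to 0.030, with 125 within 0.1. The other 4 subunits had less distinct patterns, with 515 to 1284 genes within 0.1. Their nearest genes were Ddx11, Prdx1 and Pknox2 for Gabra3, Cul1, Mmadhc and Ddx39b for Gabra4, Sfswap and Rrp1b for Gabra5, and Fam131a, Ncoa1 and Alox12b for Gabrb2.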

How the data were processed

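The authors trimmed and filtered reads, aligned them to mm10 with Rsubread, quantified transcripts with Salmon and obtained gene counts with tximport. The table that the authors deposited holds log2 values from DESeq2's rlog, in which library size is removed and genes with few reads are pulled towards their mean. Tool versions, and whether these values include the limma batch correction named for heatmaps, are not given in the sources used here. Of 20196 symbols, 25 had been turned into dates and were left out. Differences between group values were taken in 6 comparisons, counted past 0.5 and 0.25, and ranked among the 14986 genes averaging 3 or more. Transcript lengths and positions came from GENCODE M21 (GRCm38), with a length for 98.1% of these genes, and the trend in length was removed in 50 bins. The subunits and lists were chosen with earlier results of these data known. The text names all 7 subunits, 8 other GABA-A subunits, the 3 genes of each pathway list furthest from unstressed controls with any past 0.5, and the 3 genes nearest to each subunit. Some genes that these rules name are not reported here. Cell type markers are given as lists, apart from genes a result turns on. Alternatives were other sizes, filters, centring of groups and removal of the length trend. The removal of the length trend was tested on simulated data. Python 3.11.15, numpy 2.4.6, pandas 2.3.3 and matplotlib 3.10.9 were used.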

Additional observations from a re-analysis of the deposited data

Results flagged for a closer look

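The AS difference had opposite signs in the 2 rearing conditions, and the gap between them was over 0.5, for Gabra2 and Gabrd. For Gabra2 the AS difference was −0.50 in controls and 0.02 in ELS mice, a gap of 0.52. For Gabrd it was −0.18 in controls and 0.33 in ELS mice, a gap of 0.51. Opposite signs were found for 5 of the 7 subunits and 61.3% of all genes. With groups centred on their medians the gaps were 0.46 and 0.45, and the AS difference of Gabra2 in ELS mice was −0.0062, so that its signs were no longer opposite. Each rests on 1 value per group, and the difference between rearing conditions was not tested.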

How the results depend on the processing

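The table holds 1 value per gene and group, so leaving out a library was not run, and depth could not be examined. No paired analysis was possible because the columns carry no replicate numbers. With no filter or a mean of at least 6, the subunits past 0.5 numbered the same in 6 of 6 comparisons. These filters could not change the counts, as the lowest mean of the 7 subunits was 6.63, for Gabrb1. With a size of 0.25 in place of 0.5, 1 subunit passed after AS in controls, 1 after AS in ELS mice and 1 between ELS mice and controls after AS. With a size of 1 the counts were 0 for ELS, 0 for ELS with AS against unstressed controls and 0 for the AS difference in ELS mice minus that in controls, here called the gap. With groups centred on their medians the same 3 counts were 0, 0 and 0, and with the length trend removed 0, 0 and 1, the latter Gabrd. With the length trend removed the medians were −0.080 after AS in controls, −0.047 with ELS, −0.051 with both and 0.099 for the gap. With centring they were 0.0058 after AS in ELS mice, 0.049 between ELS mice and controls after AS and 0.12 for the gap. Over the 7 and the 3 other subunits used the median was −0.042 with both against unstressed controls, and the mean of the 7 was 0.053 after AS in ELS mice.

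Of 42 single values, 3 changed sign with centring, at 0.012 for Gabra3 after AS in controls, −0.0062 for Gabra2 after AS in ELS mice and −0.036 for the gap of Gabrb1. With the length trend removed 3 of 42 did, at 0.028 for Gabra3 after AS in controls, 0.0055 for Gabrb2 with ELS and AS against unstressed controls and −0.090 for the gap of Gabrb1. The cause of these changes was not tested beyond the construction of each alternative.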
